A study of Mus musculus with 2 samples.

Results

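The 54 genes described here make up the mouse Wnt signalling set of ligands, R-spondins, secreted inhibitors, receptors, nuclear effectors, and feedback genes and R-spondin receptors, read in single cells sorted from E11.5 heads. The list was taken by symbol, and each symbol matched 1 of the 32285 genes counted. It was drawn up with earlier results of these data known. The set holds 13 Wnt ligands, 4 R-spondins, 9 secreted inhibitors, 14 receptors, 5 nuclear effectors and 9 genes of negative feedback and R-spondin reception. The last group was made to include *Kremen1*, which is neither a feedback gene nor an R-spondin receptor gene. A second list of 64 other genes of the pathway is given by counts.

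Wnt proteins are lipid-modified ligands that bind Frizzled receptors. With the co-receptors LRP5 and LRP6 they spare β-catenin from degradation, and β-catenin then acts with TCF and LEF factors on target genes, among them *Axin2*, *Nkd1* and *Lef1*. R-spondins raise the number of Frizzled receptors at the cell surface by engaging LGR receptors and the ubiquitin ligases ZNRF3 and RNF43, whereas SFRP proteins and WIF1 bind Wnts and DKK1 binds LRP co-receptors. In the embryonic face, canonical signals and the WNT5A branch through ROR2 are known for growth and outgrowth of the prominences, and in the brain Wnt1, Wnt3a and Wnt8b mark dorsal midline and boundary regions.

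The study compared neural crest lineage cells with and without the transcription factors TFAP2A and TFAP2B, by 10x Genomics 3′ single-cell RNA-seq. Both libraries, from E11.5 embryos, carried the reporter r26 mTmG/mTmG and the driver Wnt1CRE+. The control was *Tfap2b* wt/flox and *Tfap2a* wt/flox, and the mutant was flox/flox at each of these genes. In both, a *Wnt1:CRE* transgene switched the mTmG reporter to membrane GFP and GFP+ cells were sorted from heads cut below pharyngeal arch 2, and cells of the Wnt1 lineage in the brain were sorted along with the neural crest. Each library pooled 2 embryos, giving 1 library per genotype: no test of genotype was possible, and each interval here covers counting error only, not the spread between embryos.

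The controls were heterozygous, not wild type, for both genes. In addition, 98.8% of control cells and 0.107% of mutant cells held a *Xist* UMI, while 0.0356% and 82.1% held a UMI of a Y-linked gene, so an effect of sex and one of genotype cannot be told apart here. The libraries held 83542433 and 79206144 unique molecular identifiers (UMIs), of which 5625 control and 5587 mutant cells passed the filters, with medians of 13478 and 12234 UMIs per cell. Only 6 barcodes were shared between the libraries. *Tfap2a* stood at 19.4 UMIs per 1000000 (CPM) in control and 13.3 CPM in mutant mesenchyme, and *Tfap2b* at 56.9 and 47.5 CPM. Both were also lower in mutant neurons, by less than 1.5-fold. In glia *Tfap2a* lay higher in the mutant library, at 79.0 and 121 CPM (log2 ratio 0.61, 0.41 to 0.81), and *Tfap2b* lower, at 235 and 200.2 CPM. In brain progenitors *Tfap2b* lay higher, at 3.94 and 6.45 CPM (0.71, 0.14 to 1.31), and *Tfap2a* had 16 and 17 UMIs. These 3′ counts were not read by exon and do not check the deletion.

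Cells fell into mesenchyme (3755 control and 2819 mutant cells), glia (260 and 200), neurons (719 and 1112) and brain progenitors (737 and 1206), and 154 and 250 neural cells stayed unnamed. The glia included a cluster of 92 control and 10 mutant cells that the cell type markers named neuron. The Wnt genes took no part in the clustering. The 6 mesenchyme markers summed to 1500 CPM in control and 1474 CPM in mutant mesenchyme, against 26.2 and 22.6 CPM in brain progenitors, and markers of muscle, endothelium and immune cells summed to at most 6.84 CPM in any class, those of epithelium to at most 12.3 CPM and those of blood to at most 10.2 CPM. Of the 6 glia markers, none was at 0 in glia of either library. A gene was called when its CPM differed by 1.5-fold or more between libraries with at least 100 UMIs over both, and each gene of the set called in a class or in mesenchyme clusters 0 to 3 is named with its values. Other genes are given for their level or role, and those in finer, neural and glial clusters were picked after their values were seen.

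In the mesenchyme, the most abundant of the 54 genes had different roles. *Ctnnb1*, which encodes β-catenin, stood at 415 CPM (95% Poisson interval 410 to 421) in control and 423 CPM (417 to 429) in mutant mesenchyme. The Frizzled receptor gene *Fzd2* followed with 234 and 246 CPM, and *Wnt5a* led the ligands with 99.7 and 92.9 CPM. The Wnt-binding inhibitors *Sfrp2* and *Sfrp1*, at 118 and 112 CPM in control cells, lay above *Wnt5a* and above the other receptor genes. Since 3′ UMI counts are not divided by length, these levels compare transcripts counted, not RNA mass. Fewer cells that express a gene and less RNA per cell were not separated in any CPM value.

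Of the 54 genes, 40 reached 100 UMIs in the mesenchyme. The other 14 were *Wnt1*, *Wnt3*, *Wnt3a*, *Wnt4*, *Wnt6*, *Wnt7a*, *Wnt7b*, *Wnt8b*, *Wnt9b*, *Rspo4*, *Sfrp5*, *Fzd5*, *Lgr6* and *Rnf43*. In mutant mesenchyme 0 members were called higher, against a background of 3.17% of the 12564 genes with enough UMIs, and 1 was called lower, against 0.987%. The median log2 ratio of mutant over control was 0.06 for the 40 genes and 0.02 for all 12564 genes.

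The gene called lower was *Wif1*, which encodes a secreted protein that binds Wnts (chr10:121033960-121100650, plus strand, GRCm38). It had 472 control and 214 mutant UMIs, or 8.09 CPM (7.37 to 8.85) and 4.85 CPM (4.22 to 5.55). The log2 ratio was -0.74 (95% interval -0.98 to -0.50). The control library was the higher one and the 2 intervals did not overlap. After thinning to 5000 UMIs a *Wif1* UMI was held by 3.40% (2.84 to 4.03) of mesenchymal cells in the control and 2.28% (1.75 to 2.90) in the mutant library, against 8.44% and 5.75% before. Brain progenitors, which had few *Wif1* transcripts, gave 0.413% and 0.342% after thinning, at median depths of 11529 and 11162 UMIs against 14583 and 14494 UMIs in mesenchyme.

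*Rspo1* and *Rspo2*, which encode the R-spondin ligands of LGR receptors, were also lower in mutant mesenchyme without reaching 1.5-fold. *Rspo1* (chr4:124986430-125009099, plus strand) stood at 20.4 CPM (19.3 to 21.6) in control and 14.5 CPM (13.4 to 15.6) in mutant cells, a log2 ratio of -0.50 (-0.64 to -0.36). *Rspo2* (chr15:43020794-43170826, minus strand) stood at 29.5 CPM (28.1 to 30.9) and 21.5 CPM (20.2 to 22.9), a log2 ratio of -0.46 (-0.57 to -0.34). *Rspo3* lay on the other side, with 38.7 CPM (37.2 to 40.4) and 44.5 CPM (42.5 to 46.5), a log2 ratio of 0.20 (0.11 to 0.29). The 3 R-spondin genes with enough UMIs thus did not share a direction. In the annotation *Rspo1* and *Rspo3* each overlap an opposite-strand transcript that was counted separately, *Gm12930* and *Gm48159*.

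The other secreted inhibitors differed little or lay higher. *Sfrp1* stood at 112 CPM (109 to 114) in control and 142 CPM (138 to 145) in mutant mesenchyme, a log2 ratio of 0.34 (0.29 to 0.39), and *Sfrp2* at 118 CPM (115 to 120) and 150 CPM (147 to 154), a log2 ratio of 0.35 (0.31 to 0.40). *Dkk1* was at -0.19 (-0.32 to -0.07), and the intervals of *Frzb*, *Dkk2*, *Dkk3* and *Notum* held 0. Among ligands, *Wnt11* stood at 3.99 and 5.31 CPM, a log2 ratio of 0.41 (0.14 to 0.68), and *Wnt5a* at -0.10 (-0.16 to -0.04).

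Among the 13 receptor genes with enough UMIs, 7 had intervals above 0, 2 had intervals below 0 and 4 held 0. The 7 were small differences, up to a log2 ratio of 0.24 (0.13 to 0.35) for *Fzd4*, while the co-receptor genes *Lrp5* and *Lrp6* were at -0.23 (-0.39 to -0.07) and -0.12 (-0.19 to -0.05). Over all 13 the ratios ran from -0.54 to 0.27, and the lowest belonged to a gene whose interval held 0. All 5 nuclear effectors held 0, with log2 ratios from -0.18 for *Tcf7* to 0.03 for *Ctnnb1*. Among the 7 genes measured in the feedback and R-spondin receptor group, *Kremen1* included, 6 held 0. *Axin2*, a target that also restrains the pathway, stood at 54.7 and 53.6 CPM, a log2 ratio of -0.03 (-0.11 to 0.05), and *Nkd1* at 48.0 and 50.3 CPM, a log2 ratio of 0.07 (-0.01 to 0.15). The exception was the R-spondin receptor gene *Lgr4*, with 18.2 and 22.1 CPM and a log2 ratio of 0.28 (0.15 to 0.41). The share of all genes whose intervals left out 0 was not computed. These counts of intervals are therefore not read as results about receptors or other roles.

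**Figure D1:**
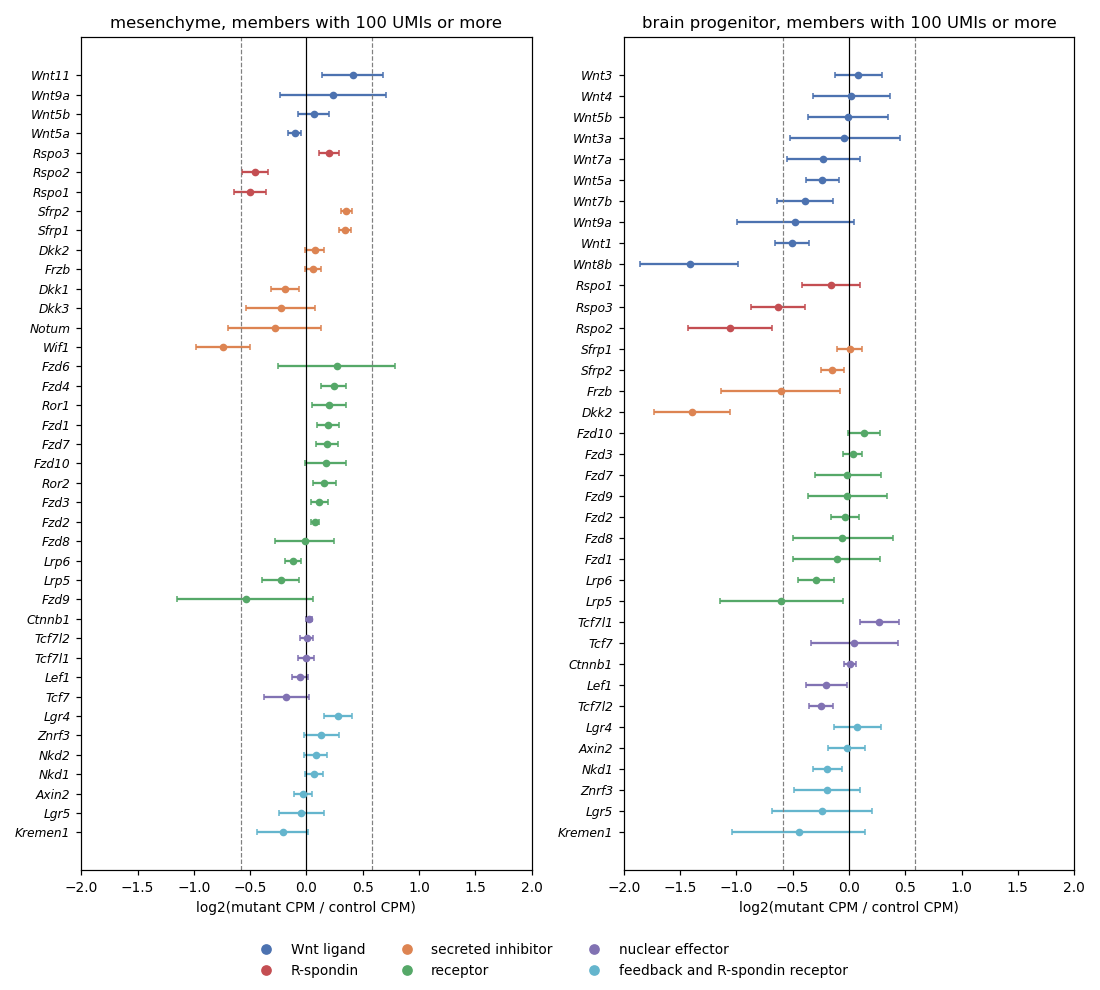
Log2 ratio of mutant over control CPM (x axis) for each gene with at least 100 UMIs, in mesenchyme (left, 40 genes) and brain progenitors (right, 37 genes), 1 library per genotype. Points are ratios, bars are exact 95% intervals for counting error, colours are the roles and dashed lines mark 1.5-fold: *Wif1* alone passes the line in mesenchyme at -0.74, while *Wnt8b*, *Dkk2* and *Rspo2* lie furthest to the left in progenitors at -1.42, -1.39 and -1.06.

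Of the 64 other pathway genes, 50 reached 100 UMIs in mesenchyme, 2 were higher by 1.5-fold and 0 were lower, with a median log2 ratio of 0.03. The backgrounds were 3.17% of all genes higher and 0.987% lower. *Sp5*, a transcription factor gene that Wnt signals induce, had 112 control and 168 mutant UMIs, or 1.92 and 3.81 CPM, a log2 ratio of 0.99 (0.64 to 1.35). *Apc2*, a relative of the tumour suppressor gene *Apc*, stood at 1.49 and 2.29 CPM, a log2 ratio of 0.62 (0.19 to 1.05). Neuron markers summed to 49.1 CPM in control and 86.9 CPM in mutant mesenchyme, and their part in the *Apc2* value was not tested. In the mesenchyme cluster with neural genes 28 of the 168 mutant *Sp5* UMIs were found, and in the 4 others the *Sp5* log2 ratio ran from 0.23 to 1.25.

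Clustered again, the mesenchyme gave 4 clusters and a group of 46 control and 91 mutant cells with neural genes, where Scrublet marked 73.9% and 72.5% as doublets. Cluster 0 (1309 control and 863 mutant cells) was high in both frontonasal and periocular markers and was led by *Tfap2b*, *Pax7* and *Zic1*. Cluster 1 (900 and 725) was maxillary-like, cluster 2 (686 and 715) was led by *Hoxa2*, *Emx2* and *Dlx3* and stayed unnamed, and cluster 3 (814 and 425) was mandibular-like. Mutant cells made up a smaller share of clusters 0 and 3 than of cluster 2, so each comparison was made within clusters.

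In cluster 0, 35 genes of the set had enough UMIs. Of these, 3 were called lower, against a background of 1.18% of 10775 genes, and 1 was called higher, against 4.85%. *Wif1* stood at 11.4 CPM (10.0 to 13) in control and 5.31 CPM (4.09 to 6.78) in mutant cells, a log2 ratio of -1.11 (-1.53 to -0.70). *Rspo1* stood at 35.4 CPM (32.8 to 38.1) and 22.1 CPM (19.6 to 24.9), a log2 ratio of -0.68 (-0.89 to -0.47). *Rspo2* stood at 36.1 CPM (33.5 to 38.9) and 23.8 CPM (21.1 to 26.7), a log2 ratio of -0.60 (-0.81 to -0.40). In each of the 3 genes the intervals of the 2 libraries were apart, with control the higher. With mitochondrial UMIs limited to 5% in place of 10% the ratio of *Rspo1* was -0.52, short of 1.5-fold. That of *Rspo2* was -0.43 with each cell weighted equally and -0.45 in thinned cells, also short of it. *Sfrp1* was the gene called higher, with 130 CPM (125 to 135) and 201 CPM (193 to 209), a log2 ratio of 0.63 (0.55 to 0.71), or 0.55 at the 5% limit, short of 1.5-fold. *Wnt5a* was lower here as well, at 154 and 117 CPM, a log2 ratio of -0.40 (-0.49 to -0.31) that did not reach 1.5-fold.

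In the maxillary-like cluster 1, 0 of 35 genes were called in either direction, against backgrounds of 1.13% higher and 0.692% lower of 10257 genes. *Rspo1* stood at 12.1 CPM (10.5 to 13.9) in control and 16.1 CPM (14 to 18.4) in mutant cells, a log2 ratio of 0.41 (0.12 to 0.70), opposite in sign to cluster 0. *Wnt11*, which had its highest level of the 4 clusters here, stood at 8.57 and 12.1 CPM, a log2 ratio of 0.50 (0.16 to 0.84). The target genes *Axin2* and *Nkd1* held 0.

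In cluster 2, 29 genes had enough UMIs, 1 was called lower, against a background of 1.1% of 9841 genes, and 2 were called higher, against 2.46%. *Rspo1* showed its largest difference among the 4 clusters, with 211 control and 83 mutant UMIs, or 21.9 CPM (19.1 to 25.1) and 8.52 CPM (6.78 to 10.6), a log2 ratio of -1.36 (-1.75 to -0.99). The Frizzled receptor genes *Fzd1* and *Fzd7* were higher. *Fzd1* stood at 39.2 CPM (35.4 to 43.4) and 63.0 CPM (58.1 to 68.2), a log2 ratio of 0.68 (0.50 to 0.87), and *Fzd7* at 24.9 CPM (21.9 to 28.3) and 38.9 CPM (35.1 to 43.0), a log2 ratio of 0.64 (0.41 to 0.88). At the 5% mitochondrial limit these ratios were 0.44 and 0.47, short of the call. This was the cluster in which *Axin2* was lower, at 67.9 and 47.2 CPM with a log2 ratio of -0.53 (-0.70 to -0.35), short of 1.5-fold. *Lef1* (-0.33, -0.53 to -0.12) and *Nkd1* (-0.25, -0.45 to -0.04) had the same sign.

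In the mandibular-like cluster 3, 33 genes had enough UMIs, 1 was called lower, against 1.45% of 9698 genes, and 1 was called higher, against 0.876%. The receptor gene *Fzd8* had 85 control and 31 mutant UMIs, or 7.24 CPM (5.79 to 8.96) and 4.46 CPM (3.03 to 6.34), a log2 ratio of -0.70 (-1.34 to -0.09). *Tcf7*, which encodes the nuclear effector TCF1, had 72 and 74 UMIs, or 6.13 CPM (4.80 to 7.73) and 10.7 CPM (8.37 to 13.4), a log2 ratio of 0.80 (0.31 to 1.29). In cells thinned to 5000 UMIs the *Tcf7* ratio was -0.01, and this call was lost. The ratio was 0.82 with each cell weighted equally, 0.87 with doublets removed and 0.65 at the 5% mitochondrial limit. What made the thinned value differ was not tested. *Rspo2* stood at 40.3 and 30.1 CPM, a log2 ratio of -0.42 (-0.66 to -0.18).

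**Figure D2:**
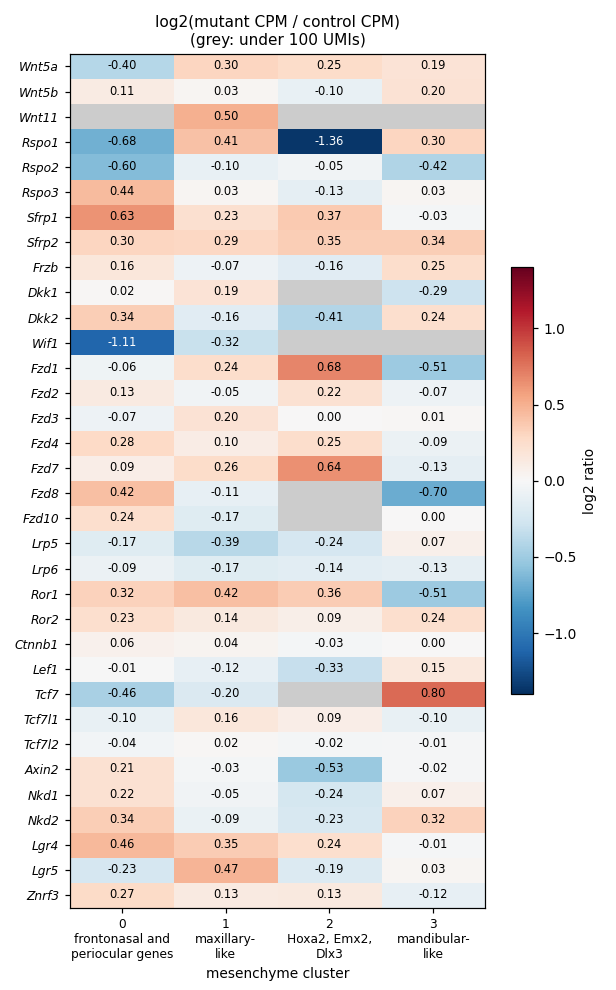
Log2 ratio of mutant over control CPM for 34 of the genes (rows, ordered by role) in the 4 mesenchyme clusters (columns), with red higher and blue lower in the mutant library and grey for under 100 UMIs. *Rspo1* runs from -1.36 in cluster 2 to 0.41 in cluster 1, whereas the row of *Ctnnb1* stays near 0 in each column.

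Among the other pathway genes, 47 had enough UMIs in cluster 0. Of these, 4 were called higher, against a background of 4.85%, and 0 were called lower, against 1.18%. The 4 were *Vangl1* (log2 ratio 0.61), *Gpc4* (1.06), *Sp5* (0.95) and *Tnfrsf19* (0.62). *Dact1* was called higher in cluster 2 (0.63), the only call among 45 genes, against a background of 2.46%. In cluster 3, where 42 had enough UMIs, 1 was called higher, against 0.876%, and 1 lower, against 1.45%. The secreted modulator gene *Sostdc1* was higher, at 59.1 and 103 CPM with a log2 ratio of 0.79 (0.64 to 0.95), and *Tspan12* was lower (-0.71, -1.12 to -0.30).

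A finer clustering, added after these results were seen, divided cells of the frontonasal and periocular kind into a frontonasal-like cluster (637 control and 423 mutant cells), an unnamed cluster led by *Tfap2b*, *Tfap2a* and *Crym* that also held *Shox2* among its leading genes (541 and 311), and an unnamed cluster led by *Vtn* and *Tagln* (357 and 365). The secreted Wnt regulators were not evenly spread over these cells. In control cells *Wif1* was highest in the frontonasal-like cluster, at 19.7 CPM (17.1 to 22.7), followed by the *Tfap2b*-led cluster at 10.7 CPM (8.67 to 13.1), and these 2 intervals did not overlap. *Rspo2* was highest in the frontonasal-like cluster at 57.9 CPM (53.3 to 62.8), then in the mandibular-like cluster at 41.1 CPM (37.3 to 45.1). *Rspo1* was highest in the *Vtn*-led cluster at 48.1 CPM (41.5 to 55.5) and the *Tfap2b*-led cluster at 42.5 CPM (38.3 to 47.0), whose intervals overlapped, and stood at 5.13 CPM in the maxillary-like and 5.80 CPM in the mandibular-like cluster. *Rspo3* was highest in the second arch-like cluster at 73.1 CPM (60.1 to 88.2) and the maxillary-like cluster at 60.1 CPM (56.1 to 64.4), whose intervals also overlapped. *Wnt5a* was highest in the frontonasal-like cluster at 203 CPM (194 to 212) and *Sfrp1* in the *Vtn*-led cluster at 257 CPM (242 to 274).

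The *Tfap2b*-led cluster held the largest differences of *Wif1* and *Wnt5a* among these clusters. *Wif1* had 95 control and 14 mutant UMIs there, or 10.7 and 2.68 CPM (1.47 to 4.50), a log2 ratio of -2.0 (-2.92 to -1.18). *Wnt5a* (chr14:28504750-28527448, plus strand) stood at 149 CPM (141 to 157) and 74.5 CPM (67.3 to 82.3), a log2 ratio of -1.0 (-1.17 to -0.83), and *Rspo1* at 42.5 and 21.1 CPM (17.3 to 25.4), a log2 ratio of -1.01 (-1.33 to -0.70). In the frontonasal-like cluster the same 3 genes gave other values: *Wnt5a* stood at 203 and 232 CPM, a log2 ratio of 0.20 (0.10 to 0.29), *Rspo1* at 25.3 and 34.5 CPM, a log2 ratio of 0.45 (0.18 to 0.71), and *Wif1* at 19.7 and 16.2 CPM, a log2 ratio of -0.28 (-0.64 to 0.07). *Rspo2* was lower in both, at -0.57 (-0.79 to -0.35) in the frontonasal-like and -0.51 (-0.89 to -0.13) in the *Tfap2b*-led cluster.

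Those 2 clusters also differed in the receptor gene *Lgr5*, which stood at 16.6 and 8.67 CPM in the frontonasal-like cluster, a log2 ratio of -0.94 (-1.41 to -0.49), and at 6.65 and 9.38 CPM in the *Tfap2b*-led cluster, where the interval held 0. *Wnt11* in frontonasal-like cells stood at 6.58 and 10.7 CPM, a log2 ratio of 0.70 (0.19 to 1.21), and *Lrp5* at 13.9 and 8.98 CPM, a log2 ratio of -0.64 (-1.11 to -0.18). In the *Vtn*-led cluster *Rspo3* was higher in mutant cells, with 76 and 187 UMIs, or 19.4 CPM (15.2 to 24.2) and 47.8 CPM (41.2 to 55.2), a log2 ratio of 1.31 (0.91 to 1.71), while *Rspo1* was lower at -0.72 (-1.07 to -0.38). In the unnamed cluster led by *Dlx3* and *Hoxa2*, *Rspo1* stood at 20.04 and 6.92 CPM, a log2 ratio of -1.53 (-2.01 to -1.08).

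**Figure D3:**
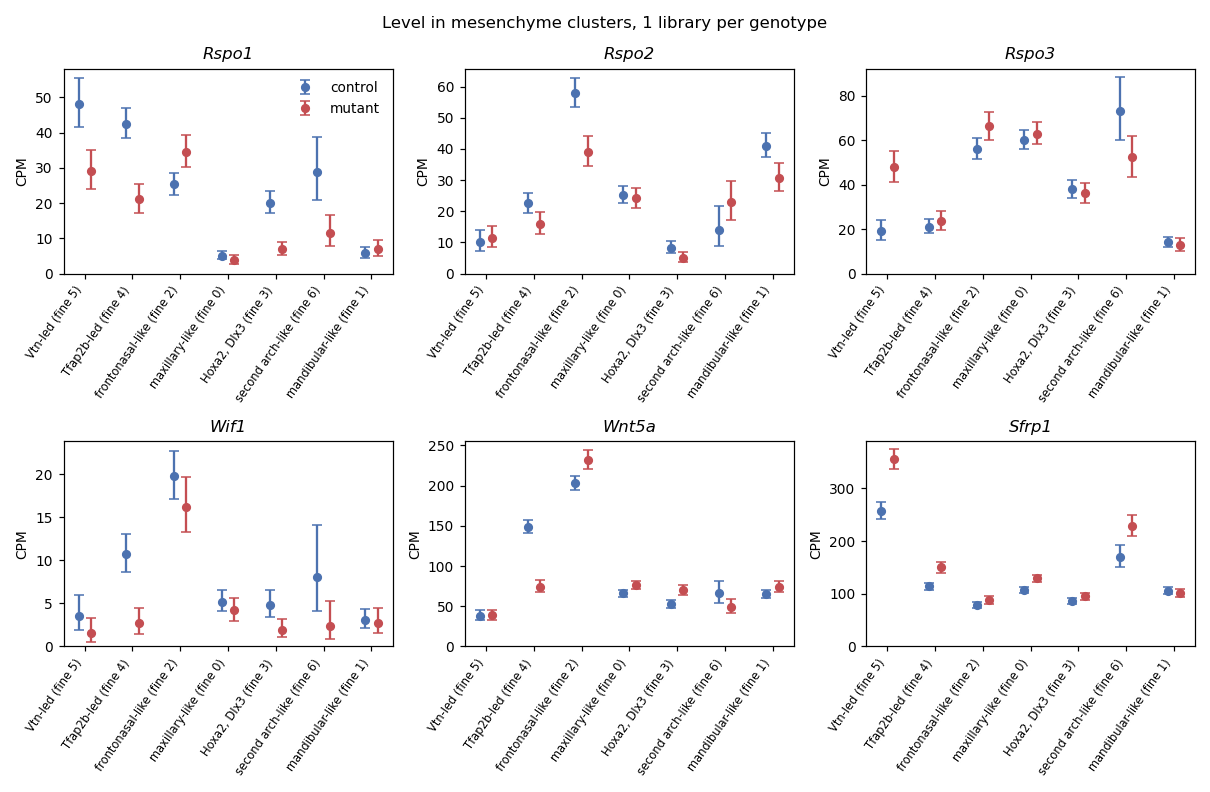
CPM (y axis, linear from 0) of *Rspo1*, *Rspo2*, *Rspo3*, *Wif1*, *Wnt5a* and *Sfrp1* in 7 finer mesenchyme clusters (x axis), control in blue and mutant in red, 1 library each; bars are exact 95% Poisson intervals. *Wnt5a* is at 149 against 74.5 CPM in the *Tfap2b*-led cluster, and at 203 against 232 CPM in the frontonasal-like cluster.

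Sequence before the start was read to see which of the genes that differed carry a TFAP2 motif, and RefSeq promoters were at hand for 38 of the 54 genes. The palindrome GCCNNNGGC, which TFAP2 proteins bind, was searched on both strands from 250 bases before to 50 bases after the start. It occurred in 15 of 38 genes (39.5%) and in 18.55% of all 27025 genes. The base composition of these promoters was not compared. CTTTGAT, a core that TCF and LEF factors bind, was searched likewise and occurred in 2 of 38 genes (5.26%) and in 4.29% of all genes. The 2 motifs can share no more than 1 letter. Among the genes called lower in a class or in mesenchyme clusters 0 to 3, *Wif1*, *Rspo1*, *Wnt8b* and *Dkk2* held neither motif and *Frzb* held GCCNNNGGC, while the promoters of *Rspo2*, *Rspo3*, *Fzd8* and *Lrp5* were not analysed here. Of those called higher, other than *Dkk2*, *Nkd1*, *Fzd1* and *Fzd7* held neither motif and *Tcf7* held GCCNNNGGC. The promoter of *Sfrp1* was not analysed. *Wnt11* held both motifs. The 250 bases before the start of *Rspo1*, *Wnt8b*, *Dkk2* and *Wnt11* are given 5′ to 3′ from RefSeq on GRCm38.p6, all on the plus strand, with GCCNNNGGC in capitals. They lie at chr4:124986180-124986429, chr19:44493222-44493471, chr3:132085042-132085291 and chr7:98834862-98835111.
Rspo1: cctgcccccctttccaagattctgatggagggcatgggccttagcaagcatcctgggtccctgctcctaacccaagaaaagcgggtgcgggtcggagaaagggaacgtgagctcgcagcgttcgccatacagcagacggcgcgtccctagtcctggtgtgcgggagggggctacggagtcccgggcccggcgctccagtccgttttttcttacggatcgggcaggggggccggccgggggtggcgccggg
Wnt8b: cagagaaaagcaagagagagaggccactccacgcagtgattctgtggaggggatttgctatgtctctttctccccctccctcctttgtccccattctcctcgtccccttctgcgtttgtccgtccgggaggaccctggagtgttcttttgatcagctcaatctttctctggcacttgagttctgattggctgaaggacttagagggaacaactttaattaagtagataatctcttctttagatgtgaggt
Dkk2: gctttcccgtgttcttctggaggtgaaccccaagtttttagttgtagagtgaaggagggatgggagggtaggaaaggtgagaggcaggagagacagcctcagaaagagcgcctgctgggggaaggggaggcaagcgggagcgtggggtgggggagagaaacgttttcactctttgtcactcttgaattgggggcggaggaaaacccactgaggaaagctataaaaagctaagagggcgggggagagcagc
Wnt11: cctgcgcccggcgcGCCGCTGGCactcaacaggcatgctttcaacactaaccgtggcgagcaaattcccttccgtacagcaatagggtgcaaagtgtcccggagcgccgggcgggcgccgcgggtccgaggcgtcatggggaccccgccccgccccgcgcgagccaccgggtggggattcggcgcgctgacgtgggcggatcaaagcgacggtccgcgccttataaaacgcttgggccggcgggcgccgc
No match says only that these letters are not in this window, and a match is a description of sequence, not a binding site.

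Brain progenitors held 37 genes of the set with enough UMIs. Here 6 were called lower, against a background of 0.834% of 10426 genes, and 0 were called higher, against 0.834%. The median log2 ratio was -0.16 for the 37 genes and -0.01 for all 10426. Intervals lay below 0 for 14 genes, above 0 for 1 (*Tcf7l1*) and held 0 for 22, and the 4 lowest ratios belonged to *Wnt8b*, *Dkk2*, *Rspo2* and *Rspo3*. The share of all genes with intervals below or above 0 was not computed, so these interval counts have no background.

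*Wnt8b*, a ligand of the dorsal forebrain midline (chr19:44493472-44514273, plus strand), had 122 control and 73 mutant UMIs, or 13.4 CPM (11.1 to 15.9) and 5.01 CPM (3.92 to 6.30), a log2 ratio of -1.42 (-1.86 to -0.99). *Rspo2* had 142 and 109 UMIs, or 15.6 CPM (13.1 to 18.3) and 7.48 CPM (6.14 to 9.02), a log2 ratio of -1.06 (-1.43 to -0.69). *Rspo3* (chr10:29452416-29535867, minus strand) stood at 31.2 CPM (27.7 to 35.1) and 20.2 CPM (17.9 to 22.6), a log2 ratio of -0.63 (-0.87 to -0.39). All 3 encode secreted activators of the pathway, and each was higher in the control library with intervals apart. In thinned cells the *Rspo3* ratio was -0.41, short of 1.5-fold. The inhibitor gene *Dkk2* had 196 and 119 UMIs, or 21.5 CPM (18.6 to 24.7) and 8.16 CPM (6.76 to 9.77), a log2 ratio of -1.39 (-1.74 to -1.06), or -0.68 with classes drawn at the higher resolution of 0.1. *Frzb* and *Lrp5* were near the limit of a call, at log2 ratios of -0.61 (-1.14 to -0.08) and -0.60 (-1.15 to -0.05), and both were short of it with doublets removed, at -0.58.

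These transcripts came from few cells. The 10 richest control cells held 69.7% of the *Wnt8b* UMIs, 53.5% of the *Rspo2* UMIs, 69.1% of the *Rspo3* UMIs and 55.6% of the *Dkk2* UMIs. A *Wnt8b* UMI was held by 3.17% (2.02 to 4.72) of thinned progenitors in the control and 1.62% (0.98 to 2.52) in the mutant library, against 4.34% and 2.24% before thinning. In glia, which should lack it, 0 of 258 control and 0 of 199 mutant thinned cells did, which by the limit of 3 counts allows shares of up to 1.16% and 1.51%, at median depths of 17883 and 15279 UMIs. Fewer such cells in the mutant pool and less RNA per cell were not separated.

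The differences were uneven over the 3 progenitor clusters. Cluster 4, with *Nkx2-1* among its leading genes (103 control and 131 mutant cells), held most *Dkk2* UMIs, with 180 and 88, or 150 CPM (129 to 174) and 67.4 CPM (54.1 to 83.1), a log2 ratio of -1.16 (-1.54 to -0.78). It also held most *Rspo2* UMIs, with 96 and 51, or 80.3 and 39.1 CPM, a log2 ratio of -1.04 (-1.56 to -0.53). In the same cluster *Lef1* (-0.60, -1.13 to -0.08) and *Nkd1* (-0.63, -1.08 to -0.19) were lower and *Tcf7l1*, a factor that tends to repress Wnt targets, was higher at 44.3 and 71.3 CPM, a log2 ratio of 0.69 (0.18 to 1.20). Progenitor cluster 0 (505 and 893 cells) had *Dmbx1* and *Mab21l2* among its leading genes. The fixed markers named it isthmic progenitor, with 3 of them higher, a name not used further here. *Rspo3* stood there at 36.3 and 23.5 CPM, a log2 ratio of -0.63 (-0.89 to -0.37). The hindbrain-like cluster 3 (129 and 182 cells) held 26 control *Wnt8b* UMIs, in 2 cells, and 0 mutant UMIs. With so few UMIs and cells, no difference was read there.

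*Wnt1* needs care, since the *Wnt1:CRE* transgene that labels the cells is driven by *Wnt1* regulatory DNA and is carried by both libraries. Whether transgene RNA adds to the *Wnt1* count was not tested. In brain progenitors *Wnt1* had 650 control and 731 mutant UMIs, or 71.2 CPM (65.8 to 76.9) and 50.1 CPM (46.6 to 53.9), a log2 ratio of -0.51 (-0.66 to -0.35). By cluster the ratio was -0.53 (-0.79 to -0.27) in cluster 0, 0.07 (-0.20 to 0.34) in the hindbrain-like cluster 3 and -0.56 (-0.85 to -0.27) in cluster 4. The highest level lay in an unnamed neural cluster led by *Ttr* and *Foxj1*, genes of choroid plexus and ciliated cells (27 control and 55 mutant cells), with 696 CPM and 290 CPM, a log2 ratio of -1.26 (-1.55 to -0.98). *Rspo3* was also highest there, at 541 and 254 CPM, a log2 ratio of -1.09 (-1.4 to -0.78), and *Rspo1* stood at 452 and 354 CPM, a log2 ratio of -0.35 (-0.66 to -0.05). *Dkk2* lay the other way in these cells, at 33.0 and 92.5 CPM on 10 and 68 UMIs. In the mesenchyme *Wnt1* had 36 and 60 UMIs, of which 18 and 46 lay in the cluster of mostly doublets, so its level in the mesenchyme was near 0 in both libraries.

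Other progenitor ligands differed less. *Wnt7b* stood at 26.7 and 20.4 CPM (-0.39, -0.64 to -0.14) and *Wnt5a* at 72.3 and 61.4 CPM (-0.24, -0.38 to -0.09), while *Wnt3* (33.2 and 35.1 CPM), *Wnt3a*, *Wnt4* and *Wnt5b* held 0. The receptor genes with the highest control levels, *Fzd3* at 209 and 214 CPM and *Fzd2* at 97.1 and 94.9 CPM, held 0 as well. *Axin2* stood at 57.4 and 56.5 CPM, a log2 ratio of -0.02 (-0.18 to 0.14). Of the 64 other pathway genes, 39 had enough UMIs, 1 was higher by 1.5-fold (*Porcn*, the acyltransferase gene needed for Wnt secretion, 0.65) and 2 were lower. The background was 0.834% of all genes in each direction. *Sp5* stood at 20.6 and 9.60 CPM, a log2 ratio of -1.10 (-1.43 to -0.78), opposite in sign to the mesenchyme, and *Dact3* was at -0.63 (-1.0 to -0.26).

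**Figure D4:**
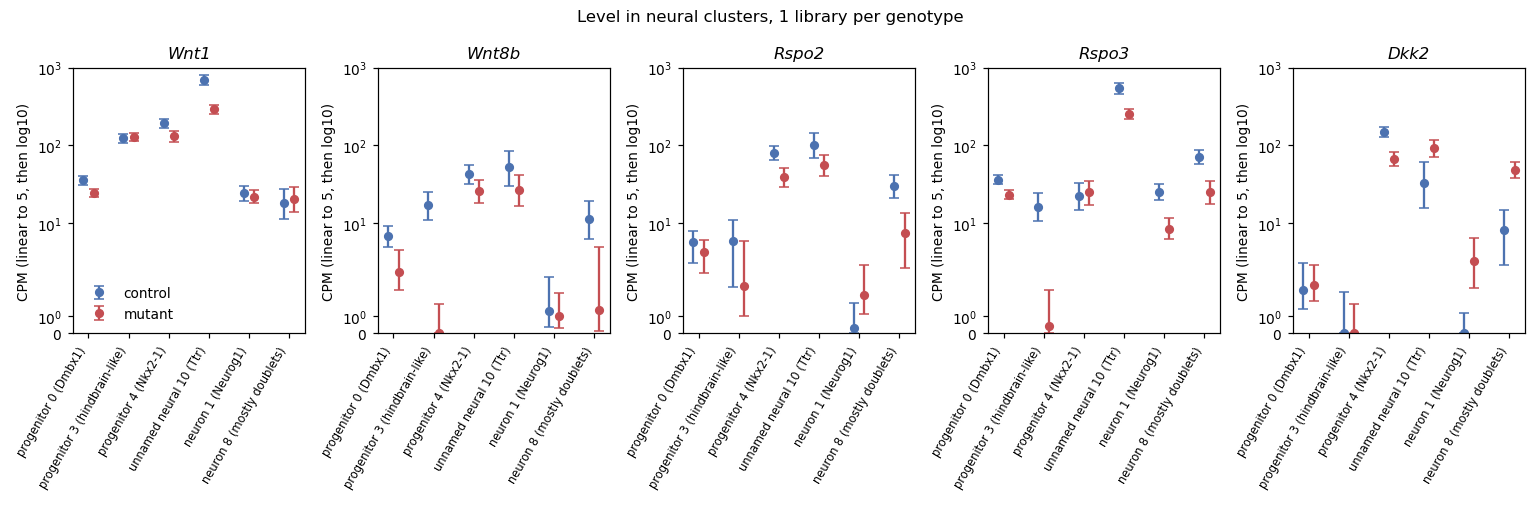
CPM (y axis, linear to 5 and log10 above) of *Wnt1*, *Wnt8b*, *Rspo2*, *Rspo3* and *Dkk2* in 6 neural clusters (x axis), control in blue and mutant in red, 1 library each, with exact 95% Poisson intervals. *Wnt1* and *Rspo3* are highest in the *Ttr*-led cluster and lower there in the mutant library (696 and 290 CPM for *Wnt1*), and *Dkk2* is at 150 and 67.4 CPM in progenitor cluster 4.

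In neurons, 25 genes of the set had enough UMIs. There 1 was called lower, against a background of 1.25% of 10533 genes, and 1 was called higher, against 1.83%, with a median log2 ratio of -0.15 against 0.01 for all genes. With called doublets removed, 5 were lower and 0 higher, a setting at which the share of all genes called was not computed. *Rspo3* had 177 control and 101 mutant UMIs, or 21.0 CPM (18.1 to 24.4) and 7.81 CPM (6.37 to 9.50), a log2 ratio of -1.43 (-1.80 to -1.07). The 10 richest cells held 85.3% of its control UMIs. *Dkk2* had 26 and 96 UMIs, or 3.09 CPM (2.02 to 4.53) and 7.43 CPM (6.02 to 9.07), a log2 ratio of 1.26 (0.63 to 1.95). Of these *Dkk2* UMIs, 10 control and 71 mutant ones lay in neuron cluster 8, where Scrublet marked 62.3% and 78.1% of the cells as doublets and mesenchymal genes led. Without that cluster the *Dkk2* ratio was -0.03, and with all called doublets removed it was -0.17. *Rspo3* was at -1.49 (-2.08 to -0.92) within that cluster, at -1.17 over the other neurons and at -1.56 (-2.13 to -1.01) in neuron cluster 1, while with mitochondrial UMIs limited to 5% it was -0.74. Mesenchyme markers summed to 129 CPM in control and 87.7 CPM in mutant neurons, with none of the 6 at 0, and their part in the *Rspo3* value was not tested.

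The nuclear effector gene *Tcf7l2*, at 162 and 177 CPM over all neurons, was uneven between neuron clusters. It stood at 392 and 145 CPM in cluster 7, an excitatory neuron-like cluster with *Tfap2d* among its leading genes, a log2 ratio of -1.43 (-1.70 to -1.17). In the excitatory neuron-like cluster 2 it stood at 26.1 and 51.0 CPM (0.96, 0.51 to 1.43), and in the sensory ganglion neuron-like cluster 11 at 331 and 525 CPM (0.66, 0.42 to 0.92). In cluster 7 the 10 richest cells held 94.1% of control and 93.9% of mutant UMIs, and the cluster held 59 and 102 cells. *Axin2* was lower in cluster 2, at 67.9 and 37.7 CPM, a log2 ratio of -0.85 (-1.22 to -0.48). Of the 64 other pathway genes, 44 had enough UMIs in neurons and 0 were called in either direction, against 1.83% higher and 1.25% lower of all genes.

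In glia, 17 genes of the set had enough UMIs, 2 were called higher, against a background of 6.11% of 8042 genes, and 0 were called lower, against 4.9%. *Sfrp1* stood at 202 CPM (190 to 215) in control and 373 CPM (352 to 394) in mutant glia, a log2 ratio of 0.88 (0.76 to 1.00). *Nkd1* had 104 and 114 UMIs, or 20.5 and 35.2 CPM, a log2 ratio of 0.78 (0.38 to 1.17), or 0.43 with mitochondrial UMIs limited to 5%, short of 1.5-fold. Neuron markers summed to 2814 CPM in control and 454 CPM in mutant glia, with none of the 7 at 0. The fixed markers named glial cluster 2 neuron, with all 7 neuron markers higher. It held 92 control and 10 mutant cells and was kept in the glia class. The calls, ratios and backgrounds over all glia therefore include these cells. In glial cluster 0 alone (102 control and 136 mutant cells) *Sfrp1* stood at 202 and 352 CPM, a log2 ratio of 0.80 (0.62 to 0.98), and *Nkd1* at 0.74 (0.16 to 1.33). In glial cluster 1 *Sfrp1* stood at 395 and 466 CPM, a log2 ratio of 0.24. With the glial clusters held at their control shares the *Sfrp1* ratio over all glia was 0.57, short of 1.5-fold. *Sfrp2* and *Frzb*, which were not called over all glia, were apart there: *Sfrp2* stood at 39.5 CPM (31.0 to 49.6) and 89.0 CPM (76.5 to 103), a log2 ratio of 1.17 (0.77 to 1.58), and *Frzb* at 111 CPM (96.4 to 127) and 53.4 CPM (43.8 to 64.5), a log2 ratio of -1.05 (-1.4 to -0.71). In glial cluster 1, which expresses *Prrx1*, *Sfrp2* lay the other way, at 202 and 84.4 CPM. Of the 64 other pathway genes, 38 had enough UMIs in glia, of which 6 were called higher and 0 lower. The 6 were *Gpc4* (log2 ratio 1.67), *Apcdd1* (1.49), *Reck* (0.98), *Tle4* (0.95), *Bcl9l* (0.72) and *Daam2* (0.64). In glial cluster 0 alone, 27 of the 64 had enough UMIs, 3 were called higher and 0 lower. The largest log2 ratio there was 1.02, and the share of all genes called was not computed for that cluster.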

How the data were processed

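Control and mutant cells were 1 library each, so no test was run. The authors aligned reads with Cell Ranger (6.0.0 in the file header, mm10) and deposited filtered UMI counts per gene and cell, with no normalization. Further steps by the authors used Seurat 4.3.0. Here barcodes with 200 to 7500 genes and at most 10% mitochondrial UMIs were kept, libraries were integrated by anchors on 2000 variable genes without the Wnt genes (Seurat 5.3.0, R 4.3.3), and clusters were named from fixed markers. At resolution 0.05 clustering gave mesenchyme, glia and 1 neural cluster in place of the 4 planned classes, so neural cells were split into neurons and brain progenitors by sub-clusters. Mesenchyme was clustered at 0.2 and, finer, at 0.4. UMI counts were summed per class and divided by the class total (CPM, UMIs per 1000000). Intervals are exact at 95% (Poisson for CPM, conditional binomial for ratios, Clopper-Pearson for shares) and cover counting error only. Doublets were called with Scrublet in scanpy 1.11.5 (Python 3.11.15) and kept unless stated, and for shares cells were thinned to 5000 UMIs, leaving out 121 control and 173 mutant cells. Genes were named when 1.5-fold apart on 100 UMIs or more with an interval that left out 0, or for the highest control level in their role. Ratios and calls were also run on simulated Poisson counts, which had no spread between embryos or cells. That run checks the calculation only and cannot show whether a call would hold in other embryos. The genes and lists were chosen with earlier results of these data known. Gene positions are from GENCODE on GRCm38. Counts were not read by exon or isoform.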

Additional observations from a re-analysis of the deposited data

Results flagged for a closer look

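For 6 genes of the set, ratios of mutant over control CPM lay on opposite sides of 0 in different cells, with intervals that left out 0. With 1 library per genotype none of these differences was tested, and how many of all genes met this rule was not counted. The log2 ratio of *Dkk2* was -1.395 in brain progenitors and 1.265 in neurons, and the second value lay near 0 without the neuron cluster of mostly doublets. *Rspo3* was at -0.63 in brain progenitors, -1.429 in neurons and 0.199 in mesenchyme. *Nkd1* was at -0.191 in brain progenitors, -0.267 in neurons and 0.776 in glia. Within the mesenchyme, *Rspo1* was at -0.678 in cluster 0, 0.41 in the maxillary-like cluster 1 and -1.363 in cluster 2. *Fzd1* was at 0.683 in cluster 2 and -0.511 in the mandibular-like cluster 3, and *Tcf7* was at -0.459 in cluster 0 and 0.797 in cluster 3, where the value in thinned cells was -0.013.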

How the results depend on the processing

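No paired analysis was possible because each genotype had 1 library. Leaving out a library would leave no comparison. Under the alternatives, the median ratio of each class stayed between the medians of the single genes' lower and upper bounds. This band is wide, -0.106 to 0.54 in glia, and is not an interval of the median. In glia the median was 0.281, and 0.113 in glial cluster 0 alone. Of 123 summary values, 90 stayed close to the main value, by this band for medians and within 1.5-fold for counts. The share of all genes called was computed for the main setting only. The counts of called genes under other settings are therefore not read as results about the set. Called higher in mesenchyme were 4 genes at a minimum of 30 UMIs and 5 with none, against 0. Called lower there were 2 with cells weighted equally, 2 in thinned cells, 2 at 30 UMIs, 3 with no minimum and 0 at 2-fold, against 1. In glia 5 were higher in thinned cells, 8 at 30 UMIs, 14 with no minimum and 0 at 2-fold, against 2, and lower were 1 with TMM scaling, 1 without doublets, 2 at 5% mitochondrial UMIs, 2 at 30 UMIs, 10 with no minimum and 2 in glial cluster 0 alone, against 0. In neurons 2 were higher in thinned cells, 0 without doublets, 0 without the cluster of mostly doublets, 0 at class resolution 0.1, 3 at 30 UMIs and 5 with no minimum, against 1, and lower were 2 with equal weights, 4 in thinned cells, 5 without doublets, 3 without that cluster, 2 at 5% mitochondrial UMIs, 4 at 30 UMIs and 9 with no minimum, against 1. In brain progenitors 3 were higher with no minimum, against 0, and lower were 10 with no minimum and 3 at 2-fold, against 6. The *Dkk2* ratio in neurons turned to -0.174 without doublets and -0.029 without the cluster of mostly doublets, and that of *Tcf7* in mesenchyme cluster 3 to -0.013 in thinned cells. Of 20 called ratios, 8 stayed past 1.5-fold under every alternative run. Clustering without integration gave no neuron or progenitor class. Glial cluster 0 alone, leaving out the doublet clusters and the finer clustering were chosen after seeing the data, and the first 2 count genes with enough UMIs over the whole class. Causes were not tested. Genes under 100 UMIs were limited by depth.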
